A study of Homo sapiens with 12 samples.

Results

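The upCIN85 and Mock libraries are 6 of the 12 RNA-seq libraries in the series, 3 in each group, and they were taken by their labels. All come from HOS, an established human osteosarcoma (OSA) cell line. The upCIN85 cells carried full-length CIN85 in the pRc/CMV2 plasmid, and the Mock cells carried the same vector without an insert. Both were geneticin-resistant pools, so the drug selection is common to them and each group rests on a single pool. The remaining libraries, 3 of siCIN85 (siRNA against CIN85) and 3 of siNeg (control siRNA) in the same line, shared the estimate of spread, and their levels are given only where they bear on a gene. No label says that the 3 libraries of a pool were separate cultures, so P-values measure the spread between these libraries, which may be technical. Of 25141 genes in the count table, 12542 passed the filter on low counts and are described here.

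CIN85, encoded by SH3KBP1, is an adaptor protein with SH3 domains that binds the ubiquitin ligase CBL and takes part in the internalization of receptor tyrosine kinases. NF-κB is a family of transcription factors held in the cytoplasm by IκB proteins, and its targets include chemokines, anti-apoptotic genes and its own inhibitors. ATF4 is a transcription factor made when cells lack amino acids or are under stress, and it switches on genes for amino acid synthesis and transport. Osteosarcoma cells are of mesenchymal origin and express collagens and other matrix genes.

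The library kit counts the 3′ ends of transcripts, so a gene's count reflects its transcripts and not its length. The 6 libraries held between 5334731 and 6049458 counts. The median standard error of a log2 fold change (log2FC, upCIN85 minus Mock) was 0.17 over all tested genes, 0.11 for the 2331 genes at 100 CPM (counts scaled to a common normalized library size) or more, and 0.33 for the 3647 genes below 10 CPM. The second upCIN85 library stood farthest from its group mean, with a root mean square deviation of 0.185 on the log2 scale over 5715 well-expressed genes against 0.128 to 0.15 in the other 5 libraries. All 14 mesenchymal markers were tested, with summed levels of 3116 to 3631 CPM in Mock and 3027 to 4065 CPM in upCIN85. The leukocyte genes PTPRC, SPI1 and AIF1 had no count in any of these libraries.

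SH3KBP1 itself measured 76.6, 82.8 and 73.0 CPM in the Mock libraries and 71.0, 90.0 and 82.8 CPM in the libraries labelled upCIN85. The groups overlapped, with a log2FC of 0.07 (SE 0.16) and an adjusted P of 0.887 from edgeR. Without upCIN85 replicate 2 it was -0.011. Counts per gene cannot separate a plasmid transcript from the cell's own, and a plasmid transcript may lack the 3′ end that was counted. The counts on SH3KBP1 therefore check the label of these libraries neither way. The study examined CIN85 protein in the resistant pools by western blotting with densitometry, and the paper describes the full-length form as overexpressed in the upCIN85 cells. Those protein measurements are not part of the data used here.

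In edgeR's quasi-likelihood test, 154 genes had an adjusted P-value below 0.05, the call used throughout, which is 1.23% of the genes tested. Of these, 55 were higher in upCIN85 (0.439%) and 99 lower (0.789%). Of the 99 genes called lower, 54 fell by more than 2-fold and 17 by more than 4-fold, and of the 55 called higher, 27 rose by more than 2-fold and 5 by more than 4-fold. The median log2FC was 1.00 among the genes called higher, -1.09 among those called lower and 0.01 over all tested genes. Most called genes were of low or middle expression, with 48 below 10 CPM and 27 at 100 CPM or more, of which 11 were higher and 16 lower. An unadjusted P-value below 0.05 was found for 1817 genes (14.5%), 833 higher and 984 lower. The 3 upCIN85 libraries lay wholly above or wholly below the 3 Mock libraries for 2598 genes (20.7%), and for 151 of the 154 called genes. The exceptions were AK4, COL1A2 and INHBE. In edgeR's test against a fold change of 1.5 rather than 0, 13 genes passed, 1 higher and 12 lower.

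**Figure D1:**
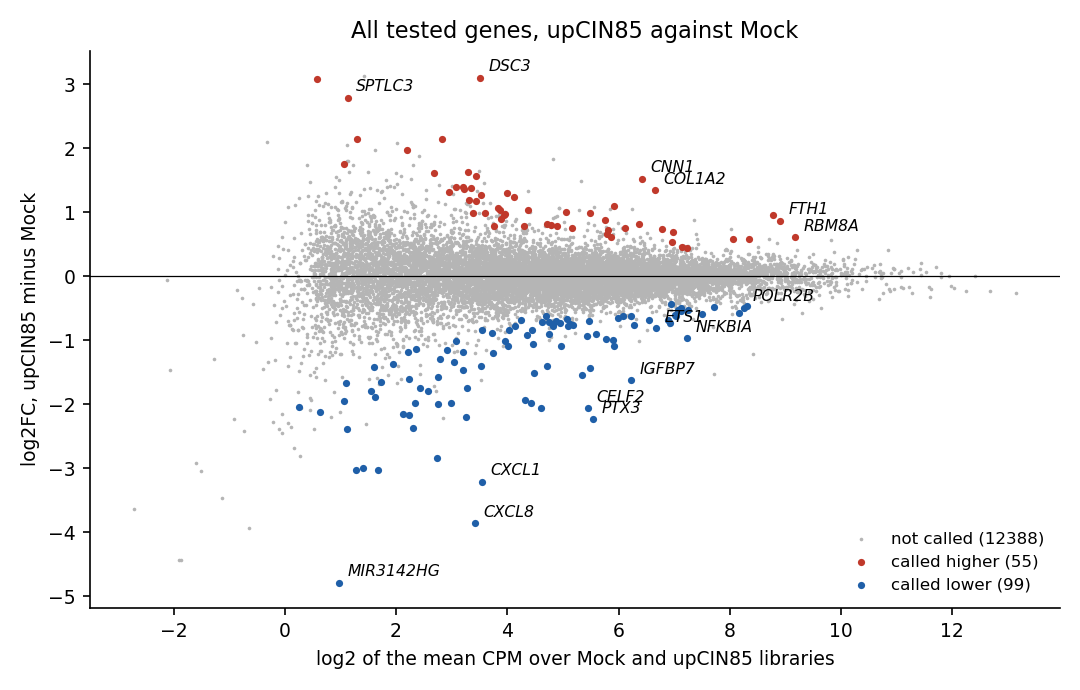
All 12542 tested genes, with the log2 of the mean CPM over the 6 Mock and upCIN85 libraries on the horizontal axis and the log2FC (upCIN85 minus Mock) on the vertical axis. The 55 genes called higher (red) and 99 called lower (blue) spread over a wide range of expression, and the largest differences are on the lower side, led by MIR3142HG, CXCL8 and CXCL1.

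The 3 lowest log2FC values among called genes were those of MIR3142HG, CXCL8 and CXCL1, which are members of the NF-κB and chemokine lists. CXCL8, the neutrophil chemokine interleukin 8 (chromosome 4, 73740506 to 73743716), measured 20.7, 15.1 and 24.2 CPM in Mock and 0.874, 1.63 and 1.53 CPM in upCIN85. That is a log2FC of -3.86 (SE 0.41, adjusted P = 0.000135). CXCL1, a related chemokine on the same chromosome, measured 26.5, 15.4 and 21.4 CPM in Mock and 2.10, 2.94 and 1.70 CPM in upCIN85. In both cases the highest upCIN85 library stayed well below the lowest Mock library. The siNeg controls of the same line lay well above Mock, at 116, 196 and 198 CPM for CXCL8. For CXCL1 they measured 102, 115 and 89.1 CPM, so the level of both genes also differed widely between control groups. Of the 14 chemokine and cytokine ligands tested, CXCL8, CXCL1 and IL32 were called lower and none higher, against 0.789% called lower over all tested genes. The list's median log2FC was -1.80, a fitted value that rests partly on members near 0 counts. After 2 counts were added to each library, the list's median relative to the Mock mean was smaller. It was -1.06, -0.96 and -0.95 in upCIN85 replicates 1, 2 and 3, and 0.508, -0.274 and -0.188 in Mock. Among the uncalled members, CXCL2 had a log2FC of -2.06 (adjusted P = 0.0612), CCL2 of -1.42 (adjusted P = 0.0896) and IL6 of -1.54 (adjusted P = 0.242), all at low levels. CXCL5 had 5, 1 and 3 counts in Mock and none in upCIN85, at least 3.15-fold lower against a floor of 3 counts over the group.

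MIR3142HG, a host transcript for microRNA genes on chromosome 5, had 24, 9 and 31 counts in Mock and 2, 0 and 0 in upCIN85. The ratio of Mock to upCIN85 was 33.5, with a 95% exact interval from 8.92 to 283 that covers counting error only. MIR3142HG passed the filter on low counts only through the siRNA libraries (12.2, 7.82 and 7.55 CPM in siNeg). Its count says nothing of the mature microRNAs. Within the list of NF-κB subunits and feedback genes, 24 were tested and the median log2FC was -0.47. Of these, 6 were called lower and 1 higher, against 0.789% and 0.439% of all tested genes. The list's median relative to the Mock mean was 0.562, 0.696 and 0.629 in siNeg replicates 1, 2 and 3. In upCIN85 replicates 1, 2 and 3 it was -0.44, -0.385 and -0.547. The members called lower were MIR3142HG, the adhesion molecule ICAM1, the apoptosis inhibitor BIRC3, the IκB family members NFKBIZ and NFKBIA, and the subunit RELB. NFKBIA, the inhibitor IκBα, fell from 189, 193 and 213 CPM to 96.2, 98.2 and 110 CPM, a log2FC of -0.97 (SE 0.12, adjusted P = 0.000825). BIRC3 fell from 38.6, 36.5 and 39.6 CPM to 10.3, 17.5 and 15.6 CPM, a log2FC of -1.40 (SE 0.18, adjusted P = 0.00115). The member called higher was MAP3K14, the kinase NIK of the non-canonical branch, with a log2FC of 1.00 (SE 0.21, adjusted P = 0.0279). With each of the 6 Mock and upCIN85 libraries left out in turn, RELB stayed called in 1 fit and MAP3K14 in 2. ICAM1 stayed called in 5 and the other members called lower in all 6. The subunits RELA (-0.25, adjusted P = 0.331) and NFKB1 (-0.41, adjusted P = 0.0924) did not pass.

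The promoters of these genes are shown because 5 genes called lower hold a κB palindrome, GGAANTTCC, within the 300 bases from 250 before to 50 after the RefSeq start (GRCh38.p14). A promoter was matched by symbol for 6908 of the tested genes. The palindrome, which reads the same on both strands, was found in 5 of 57 promoters of genes called lower (8.77%), in 0 of 28 of genes called higher, in 83 of the 6908 (1.2%) and in 0.99% of all 22114 promoters in the table. The stretches below run 5′ to 3′ along the gene's strand, with the palindrome in capitals.
CXCL8 (chr4:73740468-73740496, plus strand): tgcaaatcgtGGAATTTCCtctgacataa
CXCL1 (chr4:73869305-73869333, plus strand): tggaactccgGGAATTTCCctggcccggg
ICAM1 (chr19:10270924-10270952, plus strand): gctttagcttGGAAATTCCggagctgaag
NFKBIA (chr14:35404812-35404840, minus strand): tgactggcttGGAAATTCCccgagcctga
TNFRSF9 (chr1:7940894-7940922, minus strand): agctgtggtgGGAATTTCCcatgagaccc
The palindrome begins 91 bases before the start in CXCL8, 78 in CXCL1, 186 in ICAM1, 81 in NFKBIA and 73 in TNFRSF9. TNFRSF9, a co-stimulatory receptor of the TNF receptor family, was called lower with a log2FC of -1.18 (SE 0.25, adjusted P = 0.0303). It stayed called in 1 of the 6 fits with a library left out. A match of letters is a description and not a measured site.

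**Figure D2:**
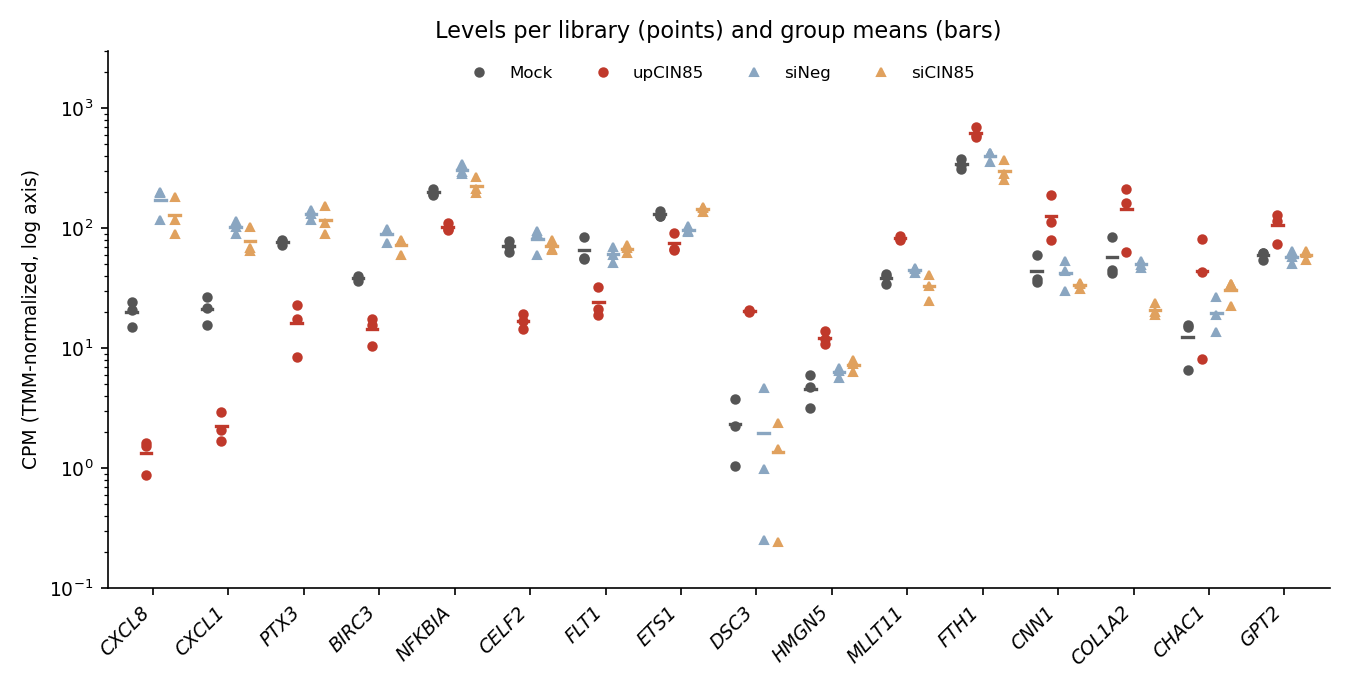
TMM-normalized CPM on a log axis for 16 genes described in the text, with each library as a point (Mock and upCIN85 circles, siNeg and siCIN85 triangles) and each group mean as a bar. The upCIN85 points of CXCL8, CXCL1, PTX3, BIRC3, NFKBIA, CELF2, FLT1 and ETS1 lie below all Mock points, those of DSC3, HMGN5, MLLT11, FTH1, CNN1 and GPT2 above them, and those of COL1A2 and CHAC1 overlap with Mock.

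A set of 21 genes stayed called when each of the 6 libraries was left out in turn, 16 lower and 5 higher. Most of them are outside the NF-κB feedback and chemokine lists, which do not hold every NF-κB target. The 12 most highly expressed of the 21 were FTH1, NFKBIA, ETS1, MLLT11, SFRP1, PTX3, FLT1, CELF2, RASA3, BIRC3, ZNF804A and NFE2L3. The smallest P-value of the whole comparison belonged to CELF2, a regulator of splicing and mRNA stability (chromosome 10, 10798397 to 11336675). It measured 63.4, 77.4 and 70.7 CPM in Mock and 17, 19.3 and 14.4 CPM in upCIN85, a log2FC of -2.06 (SE 0.17, adjusted P = 1.28e-05), and stayed between -2.17 and -1.96 with a library left out. PTX3, a secreted pattern-recognition protein, fell from 80.0, 72.0 and 78.4 CPM to 17.5, 23 and 8.50 CPM. FLT1, the VEGF receptor 1, fell from 55.9, 84.5 and 55.4 CPM to 21.2, 32.4 and 18.7 CPM. In the siNeg libraries CELF2 ranged from 59.9 to 94.0 CPM, PTX3 from 116 to 142 CPM and FLT1 from 51.0 to 70.1 CPM, all above the upCIN85 libraries.

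Of the other stable genes, ETS1, an ETS-family transcription factor, fell with a log2FC of -0.81 (SE 0.12), NFE2L3, a relative of NRF2, with -1.09 (SE 0.16), and RASA3, a GTPase-activating protein for RAS and RAP, with -0.78 (SE 0.14). ZNF804A, a zinc finger gene, had a log2FC of -1.93 (SE 0.27), UGT8, the enzyme that makes galactosylceramide, of -1.41 (SE 0.20), and PPP1R14C, an inhibitor of protein phosphatase 1, of -3.03 (SE 0.42). NFKBIZ, CXCL8, CXCL1, IL32 and MIR3142HG complete the 16.

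On the higher side the 5 stable genes were DSC3, HMGN5, MLLT11, SFRP1 and FTH1. DSC3, the desmosomal cadherin desmocollin 3 (chromosome 18, 30990008 to 31042815), rose from 2.26, 3.73 and 1.05 CPM in Mock to 20.1, 20.4 and 20.9 CPM in upCIN85, a log2FC of 3.10 (SE 0.46, adjusted P = 0.00279). The lowest upCIN85 library was far above the highest Mock library. MLLT11 rose from 41.4, 34.3 and 39.6 CPM to 79.0, 81.2 and 85.5 CPM. SFRP1, a secreted Wnt antagonist, rose from 40.3, 38.7 and 34.5 CPM to 71.0, 56.5 and 81.8 CPM. HMGN5, a nucleosome-binding protein, had a log2FC of 1.40 (SE 0.23). FTH1, the ferritin heavy chain that stores iron, rose from 375, 308 and 338 CPM to 601, 572 and 695 CPM, and has processed copies in the genome whose reads the authors' counting could share. The light chain FTL had a log2FC of 0.58 (SE 0.17, adjusted P = 0.0924), and FTH1 was the only called member among 22 tested NRF2 targets and ferritin genes, whose median was 0.12 (0.03 to 0.18 with a library left out).

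The other genes with the lowest log2FC and separate libraries were of low expression. FBXL16, a substrate receptor of ubiquitin ligases, had 26, 24 and 23 counts in Mock and 3 in each upCIN85 library, a ratio of 8.50 (95% exact interval 4.24 to 19.3). LTB, lymphotoxin β, had 31, 19 and 29 counts in Mock and 2, 6 and 2 in upCIN85, a ratio of 8.28 (95% exact interval 4.27 to 17.9). FRMD3 (-2.83), the bradykinin receptor BDKRB1 (-2.38), VAT1L (-2.37), the cadherin CDH4 (-2.20) and CARMIL2 (-2.18), which regulates actin capping, complete the 12. With a library left out, LTB and FBXL16 stayed called in 5 of the 6 fits, CDH4 in 4, FRMD3, VAT1L and CARMIL2 in 2 and BDKRB1 in 1.

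Most of the other genes with the highest log2FC were also of low expression and were less stable. SPTLC3, a subunit of serine palmitoyltransferase in sphingolipid synthesis, measured 0.941, 0.509 and 0.175 CPM in Mock and 4.02, 2.45 and 5.10 CPM in upCIN85 (log2FC 2.79, SE 0.60). CYRIA, which binds RAC1, had a log2FC of 2.14 (SE 0.45), the mast cell carboxypeptidase CPA3 of 1.98 (SE 0.47) and ALPL, the alkaline phosphatase of osteoblasts, of 1.76 (SE 0.39). AGTR1, the angiotensin II receptor, rose from 3.76, 6.11 and 4.38 CPM to 12.2, 12.3 and 19.9 CPM, a log2FC of 1.63 (SE 0.26). LMCD1 (1.62), FHDC1 (1.57), the smooth muscle calponin CNN1 (1.53) and the sulfotransferase CHST15 (1.39) followed. AGTR1 stayed called in 5 of the 6 fits, CNN1 in 4, FHDC1 in 3, CYRIA in 2, SPTLC3, CPA3, LMCD1 and CHST15 in 1, and ALPL in none.

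Among the most highly expressed called genes the differences were modest. RBM8A, a core protein of the exon junction complex, rose from 456, 453 and 471 CPM to 678, 735 and 687 CPM, a log2FC of 0.61 (SE 0.12, adjusted P = 0.0214). S100A16, a calcium-binding protein, rose from 317, 306 and 277 CPM to 566, 565 and 611 CPM. PGRMC1 (0.59), TRIM44 (0.58) and the mitochondrial ribosomal protein MRPS26 (0.45) were also higher. POLR2B, the second largest subunit of RNA polymerase II, fell from 362, 352 and 359 CPM to 293, 238 and 233 CPM. The cyclin CCNA2 (-0.46), PHLDA2 (-0.57), the coatomer subunit ARCN1 (-0.48), ATP6V0E1 of the vacuolar proton pump (-0.59) and PGM2 (-0.52) were lower as well. Leaving out a library ended the call of RBM8A in 4 of the 6 fits and that of S100A16, PGRMC1, POLR2B and CCNA2 in 5.

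ATF4 targets leaned upward as a group while a single member passed. Of 35 tested, 33 had a positive log2FC and 21 were higher at an unadjusted P-value below 0.05, against 833 of all 12542 genes, and the median log2FC was 0.33. The called member was GPT2, a mitochondrial alanine aminotransferase, at 62.1, 53.8 and 62.4 CPM in Mock and 73.1, 114 and 128 CPM in upCIN85 (log2FC 0.82, SE 0.17, adjusted P = 0.0229, 2 of the 6 fits). ATF4 itself measured 348, 411 and 376 CPM in Mock and 405, 609 and 620 CPM in upCIN85 (adjusted P = 0.0735). CHAC1, which degrades glutathione, measured 6.58, 15.4 and 14.9 CPM in Mock and 8.04, 43.0 and 80.9 CPM in upCIN85 (adjusted P = 0.0820), and SESN2, a leucine sensor upstream of mTOR, 28.2, 26.3 and 22.6 CPM against 26.4, 65.7 and 65.4 CPM (adjusted P = 0.0510). INHBE, an activin subunit gene outside the list, was called with a log2FC of 2.14 (SE 0.50), at 2.62, 10.8 and 21.2 CPM in upCIN85. In each of CHAC1, SESN2 and INHBE the first upCIN85 library stayed within or near the Mock range and the others were above it. Over the whole list the median relative to the Mock mean was 0.16, 0.44 and 0.43 in upCIN85 replicates 1, 2 and 3, and it lay between -0.11 and 0.07 in the Mock libraries. Other members had log2FC values of 0.46 (PHGDH), 0.67 (PSPH) and 0.33 (EPRS1), none of them called (adjusted P = 0.0817, 0.0512 and 0.0911). YARS1, a tyrosyl-tRNA synthetase outside the list, was called with a log2FC of 0.46 (adjusted P = 0.0439, 1 of the 6 fits). Of the 30 genes of the other arm of the stress response tested, the ER chaperones and degradation genes, none was called, 25 had a negative log2FC and the median was -0.09 (-0.17 to -0.05 with a library left out).

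The core of the ATF4 element, TGATGNAA, was looked for on either strand in the same promoter windows. The stretches below are from CHAC1, AARS1 and HERPUD1 of the list and from HMGN5 and TMEM268 outside it. The list genes MARS1 and SLC7A1 also hold the core and are not printed. It was found in 5 of 18 promoters of the ATF4 targets (27.8%), in 2 of 28 promoters of genes called higher (7.14%), in 0 of 57 of genes called lower, in 86 of the 6908 tested (1.24%) and in 3.85% of all promoters in the table. The capitals mark the match, which may lie on either strand.
CHAC1 (chr15:40953252-40953279, plus strand): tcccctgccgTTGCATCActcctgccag
AARS1 (chr16:70289676-70289703, minus strand): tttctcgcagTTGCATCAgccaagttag
HERPUD1 (chr16:56931956-56931983, plus strand): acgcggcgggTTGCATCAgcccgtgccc
HMGN5 (chrX:81201962-81201989, minus strand): aacaggctgtTTGCATCAattctatttt
TMEM268 (chr9:114611280-114611307, plus strand): ggcgctcggcTGATGAAAcgcggcctcc
AARS1, an alanyl-tRNA synthetase, and HERPUD1, an ER stress gene, belong to the ATF4 list and were not called (log2FC 0.25 and 0.32, the latter -0.053 without upCIN85 replicate 3). HMGN5 and TMEM268 are the 2 genes called higher that hold the core, and neither is in the list.

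Matrix genes changed in both directions. Of 21 collagen genes tested, COL1A2 was called higher and COL13A1 lower, against 0.439% and 0.789% of all tested genes. The list's median log2FC was -0.04 (-0.16 to 0.05 with a library left out). COL1A2, the second chain of type I collagen, measured 84.8, 44.8 and 41.9 CPM in Mock and 160, 62.9 and 212 CPM in upCIN85 (log2FC 1.35, SE 0.31, adjusted P = 0.0439, 2 of the 6 fits). The second upCIN85 library fell inside the Mock range. COL3A1 had the same order, with 154, 110 and 84.4 CPM in Mock and 260, 107 and 272 CPM in upCIN85, and was not called (adjusted P = 0.101). COL1A1 (adjusted P = 0.165), the protease MMP2 (adjusted P = 0.0856), the inhibitor SERPINF1 (adjusted P = 0.0802) and the proteoglycan lumican, LUM (adjusted P = 0.181), also had their lowest upCIN85 value in the second library. In each of these genes Mock replicate 1 was the highest Mock library. With a library left out the log2FC of COL1A2 ranged from 0.96, without upCIN85 replicate 3, to 1.74, without Mock replicate 1. The basement membrane collagen COL4A1 had the opposite sign, with 123, 123 and 102 CPM in Mock and 72.4, 75.2 and 63.6 CPM in upCIN85, and was not called (log2FC -0.72, adjusted P = 0.0643). COL13A1, a transmembrane collagen, fell with a log2FC of -1.09 (SE 0.25, adjusted P = 0.0418, 1 of the 6 fits).

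Of 35 matrix glycoproteins and proteoglycans tested, 3 were called lower and 1 higher, against 0.789% and 0.439% of all tested genes. A negative log2FC was found for 25 and the median was -0.17. IGFBP7, a secreted binding protein of insulin-like growth factors, fell from 101, 116 and 120 CPM to 40.0, 35.6 and 34.3 CPM (log2FC -1.62, SE 0.33, adjusted P = 0.0227). The small proteoglycan biglycan, BGN, had a log2FC of -0.91 and TGFBI, a matrix protein induced by TGF-β, of -0.68. The member called higher was SRPX, with a log2FC of 1.18 (SE 0.22). Among 35 proteases and inhibitors of the matrix, CTSS (cathepsin S, -1.60) and PLAU (urokinase, -0.70) were called lower and none higher, against 0.789% called lower over all tested genes. With a library left out, IGFBP7, SRPX and CTSS stayed called in 2 of the 6 fits, PLAU in 3, and BGN and TGFBI in 1. Of 16 osteoblast lineage genes, ALPL and COL1A2 were called higher and none lower, against 0.439% called higher over all tested genes. ALPL stayed called in none of the 6 fits and COL1A2, whose groups overlapped, in 2. The list's median log2FC was 0.04 (-0.05 to 0.15 with a library left out).

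Targets of TGF-β and BMP signalling leaned downward. Of 28 tested, SMAD9 and TGFBI were called lower and none higher, against 0.789% called lower over all tested genes. A negative log2FC was found for 23, and the median was -0.38. At an unadjusted P-value below 0.05, 11 were lower, against 984 of all 12542 genes. The list's median relative to the Mock mean was -0.54, -0.326 and -0.379 in upCIN85 replicates 1, 2 and 3. In siNeg replicates 1, 2 and 3 it was 0.168, 0.025 and -0.268, and in siCIN85 -0.199, -0.107 and -0.372. Values below Mock were therefore not particular to upCIN85. SMAD9, a transducer of BMP receptors, had a log2FC of -1.34 (SE 0.30, adjusted P = 0.0384, 2 of the 6 fits). SMAD4, a SMAD gene outside the list, was called lower with a log2FC of -1.54 (SE 0.30, adjusted P = 0.0187, 3 of the 6 fits). SMAD4 lies on chromosome 18 between 50 and 60 Mb, in a lower region described with the chromosomal regions. ID1 measured 92.0, 165 and 171 CPM in Mock and 46.3, 86.1 and 21.4 CPM in upCIN85, and ID3 206, 375 and 357 CPM in Mock and 97.4, 184 and 43.3 CPM in upCIN85. In siNeg replicates 1, 2 and 3 ID1 measured 193, 192 and 89.1 CPM and ID3 384, 411 and 215 CPM. ID genes encode inhibitors of helix-loop-helix transcription factors and are direct BMP targets. Every upCIN85 library was below every Mock library for both, but the spread within groups was wide and neither passed (adjusted P = 0.0755 for ID1 and 0.0562 for ID3). The BMP antagonist NOG (-0.95, adjusted P = 0.0522) and the inhibitory SMAD6 (-1.06, adjusted P = 0.133) were also uncalled.

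Genes of G2 and mitosis had small negative differences in most members. Of 34 tested, 32 had a negative log2FC, with a median of -0.17, and 2 were called lower, against 0.789% of all tested genes. They were HMMR (-0.76, SE 0.16, adjusted P = 0.0322, 2 of the 6 fits), which acts at the mitotic spindle, and CCNA2 (-0.46, SE 0.11, adjusted P = 0.0499, 1 of the 6 fits). The list's median relative to the Mock mean was -0.10, -0.17 and -0.27 in upCIN85 replicates 1, 2 and 3 and between -0.03 and 0.03 in Mock. Values in siCIN85 replicates 1, 2 and 3 were also negative, at -0.142, -0.102 and -0.17, and those in siNeg were 0.182, -0.034 and -0.045. The 32 S phase genes had a median of -0.02 (-0.08 to 0.02 with a library left out) with none called.

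Cell junction genes held some of the largest single differences and no common direction. Of 28 cadherin, claudin and desmosome genes tested, DSC3 was called higher and CDH4 and CLDN1 lower, against 0.439% and 0.789% of all tested genes. The list's median log2FC was -0.07 (-0.18 to 0.03 with a library left out). CLDN1, the tight junction protein claudin 1, fell from 32.5, 37.5 and 28.8 CPM to 12.8, 11.6 and 10.2 CPM (log2FC -1.51, SE 0.27, 4 of the 6 fits). P-cadherin, CDH3, had a log2FC of 1.40 (adjusted P = 0.0510) and N-cadherin, CDH2, of -0.47 (adjusted P = 0.0848). Among 36 targets of SRF and YAP, CNN1 alone was called, at 35.4, 59.2 and 37.4 CPM in Mock and 113, 79.4 and 189 CPM in upCIN85. TAGLN, another smooth muscle gene of that list, had the opposite sign (-0.66, adjusted P = 0.0754), and the list's median was -0.12 (-0.18 to -0.10 with a library left out).

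Of 24 genes of CIN85 and its endocytic partners, CBL, PICALM and ARAP1 were called lower and none higher, against 0.789% called lower over all tested genes. The list's median log2FC was -0.03 (-0.11 to 0.03 with a library left out). CBL, the ubiquitin ligase that CIN85 binds, fell from 148, 175 and 152 CPM to 106, 120 and 103 CPM (log2FC -0.53, SE 0.10, adjusted P = 0.0204). PICALM, a clathrin assembly protein, had a log2FC of -0.54 (SE 0.11) and ARAP1, a regulator of small GTPases of the ARF family, of -0.74 (SE 0.15). Each stayed called in 2 of the 6 fits. The related ligase CBLB had a log2FC of 1.14 (adjusted P = 0.0599). The position of the 3 called genes, all on the long arm of chromosome 11, is described with the chromosomal regions.

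Of 3 tested genes of the leukocyte list, HCLS1 (-1.98, SE 0.35) and LCP1 (-1.74, SE 0.30) were called lower, against 0.789% of all tested genes. Both encode actin-binding proteins. Summed over the 18 listed genes in the table, the leukocyte level was 54.0 to 62.1 CPM in Mock and 20.6 to 44.5 CPM in upCIN85, and it was made up mostly of HCLS1, LCP1 and ARHGDIB, while PTPRC, SPI1 and AIF1 were at 0 counts. Its part in other differences was not tested. Receptor tyrosine kinases had EPHB3 called higher (1.27) and FLT1 lower of 31 tested, against 0.439% and 0.789% of all tested genes. The lists named next held 1 or 2 called members each, and beside the 1.23% called over all tested genes such counts are no result about a list. ERK feedback genes had DUSP1 (-0.99) and PHLDA2 called lower of 22, neuronal genes OLFM1 (-1.99) lower of 14, mesenchymal transcription factors FOXC2 (-0.65) lower of 21, apoptosis regulators BIRC3 lower of 28, and Wnt pathway genes SFRP1 higher of 29.

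Against the 1.23% called over all tested genes, which amounts to about 1 gene or fewer in each of these lists, an absence of calls is no result about their functions. None was called among 79 cytoplasmic ribosomal proteins (median log2FC 0.05), 76 nuclear respiratory chain genes (-0.02), 32 genes of glycolysis and HIF (0.01), 31 lysosome genes (0.04), 30 genes of sterol and fatty acid synthesis (-0.12), 37 interferon-stimulated genes (-0.15), 32 secreted growth factors (-0.18), 26 p53 targets and CDK inhibitors (-0.04), 21 heat shock genes (-0.03) and 16 integrins (0.11). In the ribosomal list 5 genes were higher and 6 lower at an unadjusted P-value below 0.05, and in the respiratory list 5 and 5. The sterol list's median ran from -0.45 to 0.24 over the 3 upCIN85 libraries and from -0.19 to 0.25 over Mock. Small list medians depended on single libraries: the sign was kept in 30 of 39 lists without Mock replicate 1, in 32 without upCIN85 replicate 2 and in 34 to 36 without any other library. These counts come from lists of unequal size and expression, and a list without a call may still hold differences below the reach of 3 libraries.

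**Figure D3:**
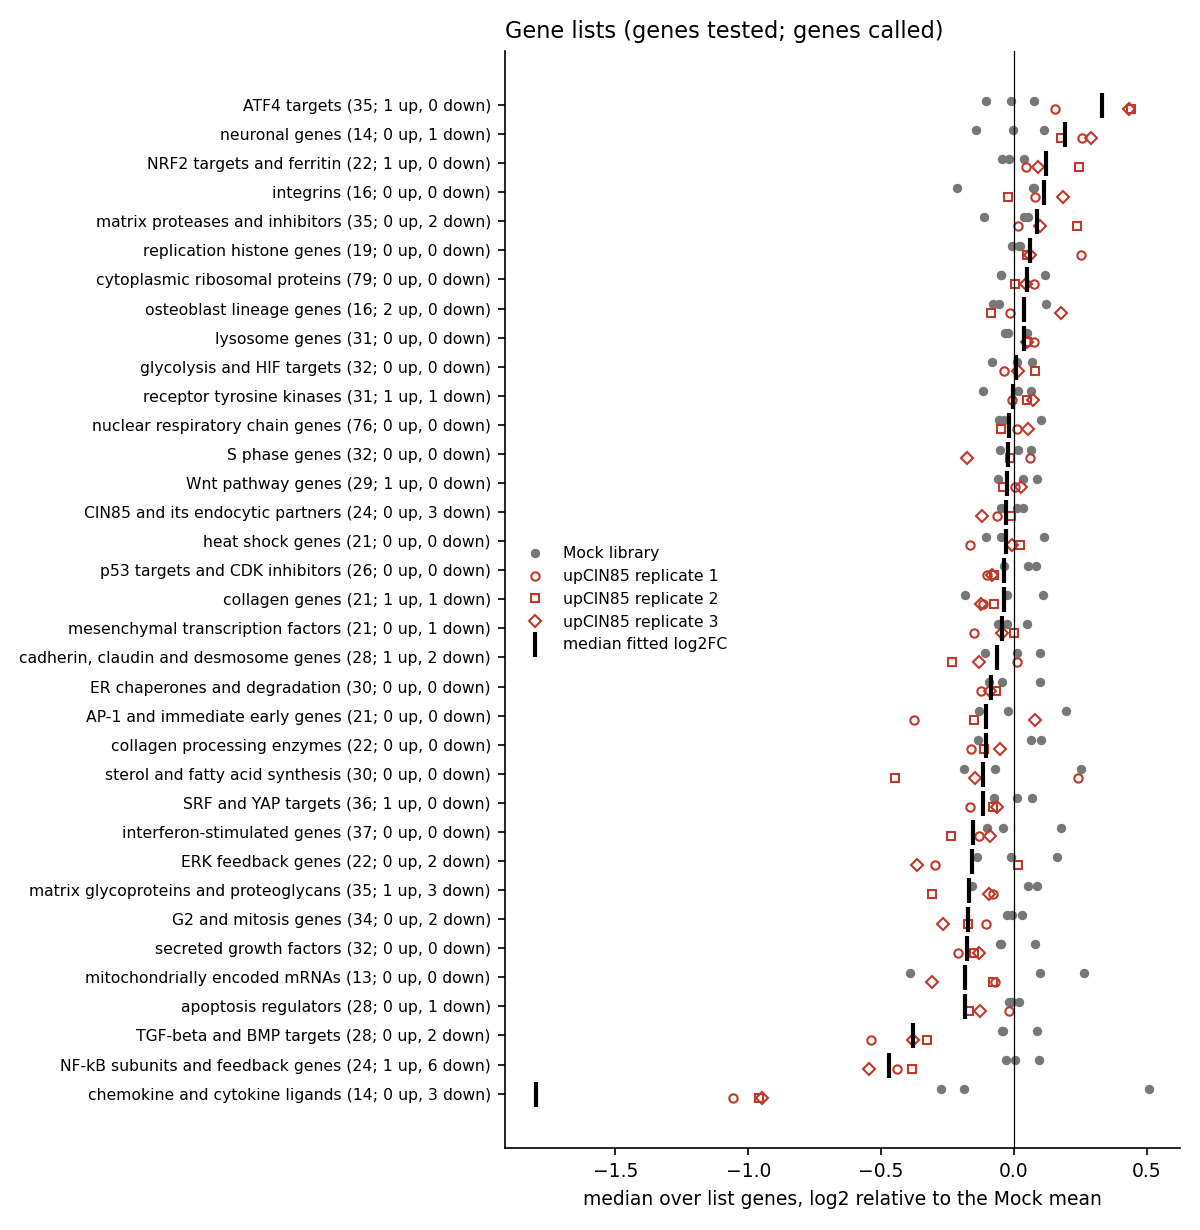
Median over the genes of each list, in log2 relative to the Mock mean, for each Mock library (grey points) and each upCIN85 library (red open symbols), with the median fitted log2FC as a black bar and the numbers tested and called beside the name. The bar can lie outside the points where counts are low, as for the chemokines (-1.80), since 2 counts were added to each library before taking logs. Chemokines, NF-κB feedback genes and TGF-β and BMP targets have all 3 upCIN85 libraries below all Mock libraries, and ATF4 targets have all 3 above. Lists with smaller medians were separated too, G2 and mitosis genes, secreted growth factors and p53 targets below Mock, and neuronal genes, NRF2 targets and replication histones above.

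The number of calls depended strongly on single libraries. Without upCIN85 replicate 3, 25 genes were called, all 25 among the 154. Without upCIN85 replicate 2 the number rose to 260, of which 124 were among the 154. Leaving out Mock replicate 1, 2 or 3 gave 89, 34 and 46 calls and leaving out upCIN85 replicate 1 gave 74. Of the 154 genes, 21 were called in all 6 fits, 27 in 3 to 5, 93 in 1 or 2 and 13 in none. The 13 include ALPL, DUSP1, AOX1, MTSS1 and LHX2.

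**Figure D4:**
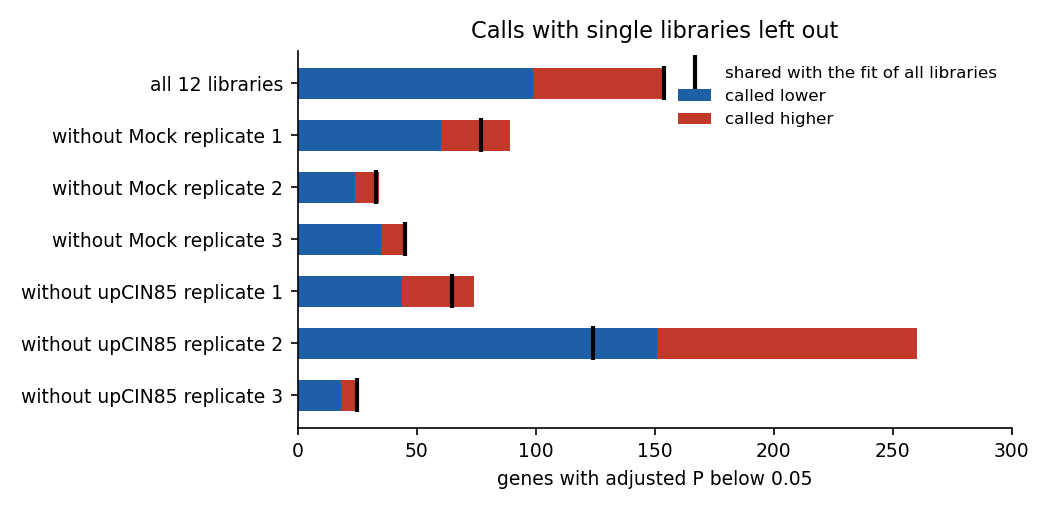
Number of called genes when all 12 libraries were fitted and in the 6 fits without a single Mock or upCIN85 library, as stacked bars of genes called lower (blue) and higher (red), with a black tick at the number shared with the 154 genes. The bars run from 25 genes without upCIN85 replicate 3 to 260 without upCIN85 replicate 2.

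Differences were also ordered along the chromosomes, a pattern looked into after the values by chromosome had been seen. Chromosome 11 held 19 genes called lower and 4 higher among 708 tested, against 0.789% and 0.439% of all tested genes. On that chromosome 69.5% of genes had a negative log2FC, with a median of -0.16. Chromosome 6 leaned the other way, with 32.2% negative and a median of 0.13. In 239 windows of 10 Mb with at least 20 tested genes, 15 had a median of -0.2 or lower and 12 of 0.2 or higher, and adjacent windows join to 10 lower and 9 higher regions. Within them lay 25 of the 99 genes called lower (25.3%, against 5.0% of tested genes in the lower regions) and 11 of the 55 called higher, these in the higher regions, which held 4.4% of tested genes. No gene called lower lay in a higher region, and no gene called higher in a lower region. The regions were chosen by the values of this same comparison, so these shares are a description and support nothing further.

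The longest region was on the long arm of chromosome 11 from 70 to 130 Mb (GRCh38). Of its 259 tested genes 217 had a negative log2FC (83.8%), the median was -0.27, and 14 were called, all lower: BIRC3, MCAM, ETS1, ARAP1, H2AX, FLI1, PHLDB1, LAYN, PCSK7, MTMR2, PICALM, CBL, ARCN1 and AP001972.5. Over all tested genes 0.789% were called lower, and this region was chosen by its values. The median per library relative to the Mock mean was -0.23, -0.18 and -0.38 in upCIN85 replicates 1, 2 and 3, between -0.03 and 0.03 in Mock, and between -0.001 and 0.056 in the siNeg and siCIN85 libraries. After the median of the other genes in the same window was subtracted, the log2FC of CBL went from -0.53 to -0.24 and that of PICALM from -0.54 to -0.19. That of ARAP1 went from -0.74 to -0.47, that of BIRC3 from -1.40 to -1.18 and that of ETS1 from -0.81 to -0.58. MCAM and CBL overlap on opposite strands, and without a stated strand setting of the counting their reads cannot be told apart.

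Other regions were shorter and some had larger medians. On chromosome 4 from 50 to 60 Mb, 26 of 28 genes had a negative log2FC with a median of -0.48, and IGFBP7, DCUN1D4, PPAT and POLR2B were called lower. The log2FC of POLR2B went from -0.49 to -0.02 after subtraction of its window's median and that of IGFBP7 from -1.62 to -1.15, and these neighbours also overlap on opposite strands. On chromosome 4 from 110 to 120 Mb the median was -0.41, with UGT8 and TIFA called lower. On chromosome 20 the window from 20 to 30 Mb had the highest median, 0.46, with CRNKL1, CST3 and ACSS1 called higher, and its neighbour from 30 to 40 Mb had -0.27, with 77 of 83 genes negative. Chromosome 6 from 0 to 30 Mb (0.25), chromosome 4 from 0 to 10 Mb (0.33), chromosome 1 from 140 to 150 Mb (0.32, with RBM8A, POLR3GL and RNVU1-25) and the end of chromosome 7 from 140 Mb (0.25) were higher.

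**Figure D5:**
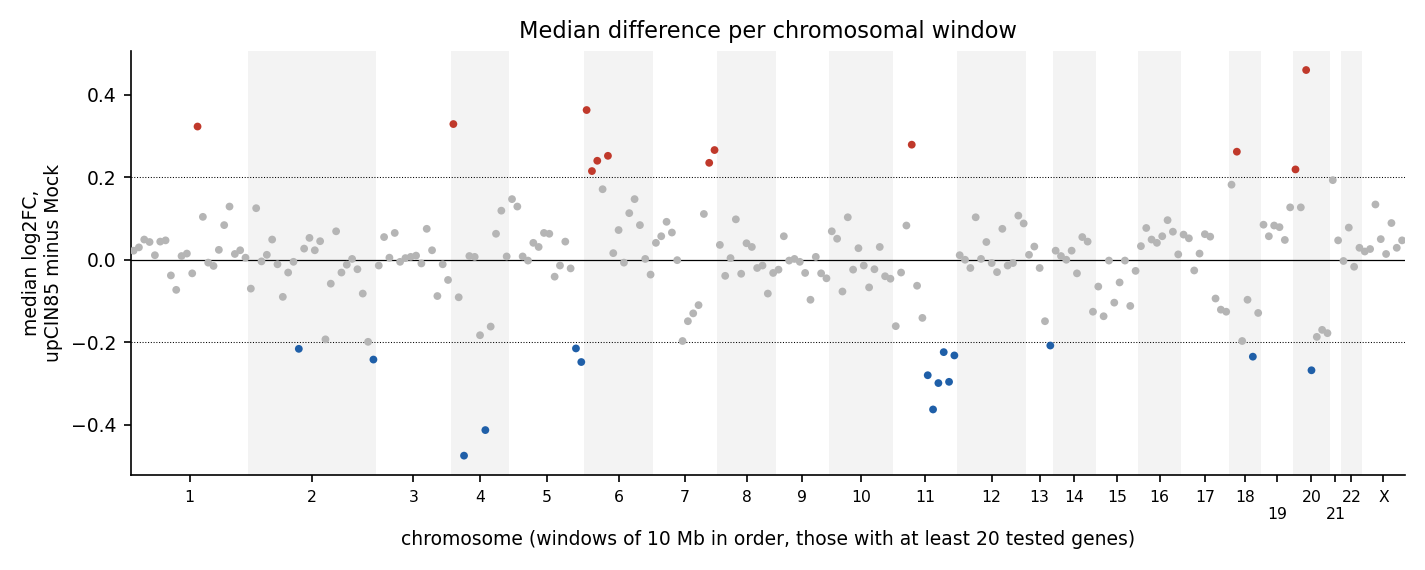
Median log2FC (upCIN85 minus Mock) of each 10 Mb window with at least 20 tested genes, in order along the chromosomes, which are named on the horizontal axis. Windows at or beyond 0.2 in either direction are coloured, and dotted lines mark 0.2 and -0.2. The run of 6 blue points is the long arm of chromosome 11, and the lowest and highest points are windows of chromosomes 4 (-0.48) and 20 (0.46).

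The spread of window medians was larger in this comparison than between the siRNA groups, and varied between libraries of the same pool. Its SD over 239 windows was 0.121 for upCIN85 minus Mock and 0.0682 for siCIN85 minus siNeg. Between single Mock libraries it was 0.0606 to 0.0811, and between single upCIN85 libraries 0.0783 to 0.122, the highest value being that of replicates 2 and 3. The siRNA libraries also had regional differences from Mock, such as 0.42 and 0.28 in siNeg replicates 1 and 2 for chromosome 18 from 50 to 60 Mb, where upCIN85 had a median of -0.24. DNA content of these regions was not measured, and its part in the differences was not tested. Of 132 called genes beyond a log2FC of 0.59 with a window value, 107 stayed beyond it after the window median was subtracted.

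Many genes called here also differed between libraries of a single siRNA group, which was noticed after the values were seen. Among the 99 genes called lower, siNeg replicate 3 was the lowest of the 3 siNeg libraries for 63 genes (63.6%, against 36.1% of all tested genes), and siCIN85 replicate 3 the lowest of its group for 66 (66.7%, against 30.3%). Among the 55 genes called higher, replicate 3 was the highest siNeg library for 31 (56.4%, against 36.4%) and the highest siCIN85 library for 29 (52.7%, against 31.1%). IGFBP7, for example, measured 195, 182 and 62.5 CPM in siNeg replicates 1, 2 and 3. CXCL8 did not have this order, with 116, 196 and 198 CPM. What sets the third siRNA libraries apart is not given in the labels, and its part in the upCIN85 calls was not tested.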

How the data were processed

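RNA was measured in 12 libraries of HOS cells prepared with a 3′ end kit using molecular identifiers. The authors deposited whole-number counts of reads per gene (featureCounts), without normalization. The submitters' processing notes name cutadapt 4.3, STAR 2.7.3a, Picard 2.25.6, Subread 2.0 and the build GRCh38. Strand settings and collapsing of identifiers are not given in the sources used here. From these counts, edgeR 4.0.16 (R 4.3.3) was run with filterByExpr (minimum count 10, minimum total 15), TMM and a quasi-likelihood fit of group means on all 12 libraries (8 residual degrees of freedom), with two-sided P-values adjusted by Benjamini-Hochberg over 12542 genes. The SE was approximated from log2FC and the F statistic (|log2FC| over root F). CPM are TMM-normalized, and log2 CPM use a prior count of 2. Intervals are exact (Clopper-Pearson) and cover counting error only. Alternatives were DESeq2 1.42.0, limma 3.58.1 (voom), other normalizations and filters, thinning to 3540641 counts, a replicate block and each library left out, and the fitting code was tested on simulated data. No pair of replicates agreed within sampling noise (chi-square per degree of freedom 5.26 to 9.19).

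Positions are from GENCODE release 29 and promoters from RefSeq. Named genes are SH3KBP1, the 12 highest and 12 lowest log2FC among called genes beyond 0.59 with separate libraries, the 12 most expressed called genes, called list genes and the 12 most expressed called in all fits without a library; further genes were named after their values were seen, and some genes under the rule are not reported here. Of 1258 list entries, 1217 matched the table. The comparison, lists and tests were chosen with earlier results of these data known. Other lists were 22 collagen processing enzymes, 21 AP-1 genes, 19 replication histones, 13 mitochondrial mRNAs, and endothelial and epithelial markers (6 tested each), none with a call. Of 14 mesenchymal markers COL1A2 was called.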

Additional observations from a re-analysis of the deposited data

How the results depend on the processing

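The main result was 154 called genes (55 higher, 99 lower), 140 of them beyond a log2FC of 0.59. Among settings that moved a count by more than 1.5 times, a fit of only the 6 Mock and upCIN85 libraries gave 281 calls (113 higher, 168 lower, 235 beyond 0.59), no filter on low counts 637 (281, 356, 478), DESeq2 300 on 12 libraries (106, 194) and 364 on 6 libraries (153, 211, 260), and thinning to the smallest total 97 (32, 65, 85). With the replicate number as a block, 1035 genes were called on 12 libraries (471, 564, 533) and 956 on 6 libraries (438, 518, 505), and 154 and 151 of the 154 were among them. Deviations of same-numbered libraries from their group means correlated across genes at 0.326, 0.227 and 0.099, each the highest of that library. The third is the weakest and the labels name no shared batch, so the main fit did not pair the samples. These values do not settle whether the numbers mark pairs, and the number of calls depends on that choice. edgeR's test against a 1.5-fold change called 13 genes. RLE and upper-quartile normalization, voom and a minimum of 10 counts in every library stayed within 1.5 times. With single libraries left out, the calls ranged from 25 to 260, those higher from 7 to 109, those lower from 18 to 151 and those beyond 0.59 from 25 to 239. The log2FC of SH3KBP1 ranged from -0.011 (without upCIN85 replicate 2, reversed) to 0.15. That of HERPUD1, not called, ranged from -0.053 (without upCIN85 replicate 3, reversed) to 0.481. No other gene followed through all settings changed sign, which for genes with separate libraries is fixed when a library is left out. Of 39 list medians, 30 to 36 kept their sign with a library left out. The cause of these shifts was not tested, except that thinning, leaving out libraries and a stricter filter leave fewer counts, samples or genes. Low counts limit what can be seen, with a median SE of 0.33 below 10 CPM.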
